A study of Homo sapiens with 4 samples.

Results

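The genes described here were 10 regulators and readouts of the epithelial to mesenchymal transition: SNAI1, SNAI2, TWIST1, TWIST2, ZEB1, ZEB2, CDH1, CDH2, CDH11 and VIM. They were chosen by gene symbol, and each symbol named 1 of the 58735 genes in every expression table. RNA was sequenced from U251 and U87 cells, both established human glioblastoma (GBM) cell lines. Each line had 1 library labelled Control and 1 labelled Bru, for brusatol, a plant-derived quassinoid. By the study's methods, Bru was dissolved in DMSO and given at the IC50 for 48 h before sequencing. The labels state neither the concentration nor what the Control cells of the sequencing experiment received. With 1 library per line and condition there was no replicate check, so no difference below could be compared with the spread between cultures. A member of the set is not a replicate of a condition either, and all 10 genes were read from the same 4 libraries.

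SNAI1 (Snail) and SNAI2 (Slug) are zinc finger repressors, TWIST1 and TWIST2 are basic helix-loop-helix (bHLH) factors, and ZEB1 and ZEB2 are zinc finger homeobox repressors. All of these bind E-box letters in promoters, and in epithelial cells the Snail and ZEB proteins silence CDH1, which encodes the adherens junction protein E-cadherin. CDH2 encodes N-cadherin and CDH11 encodes cadherin-11, both typical of mesenchymal and neural cells, and VIM encodes the intermediate filament protein vimentin. Glial cells are not epithelial, and in glioma these factors are studied in connection with invasion and a mesenchymal expression state.

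The unit was FPKM, fragments scaled to gene length and library size. In the members checked, this length held all annotated exon bases, such as 25058 for ZEB2 and 2033 for TWIST1, whichever transcript was expressed. Orders, sums, shares and ratios across genes are therefore those of FPKM and rest on these lengths. The tables still carried whole reads, with 17083896 to 21453561 reads on genes per library. Intervals below are exact 95% intervals for these reads, and they cover counting error only, since reads are not independent molecules. Log2 ratios were taken on FPKM + 0.1, which understates the change of low genes, whereas the interval beside a ratio belongs to the FPKM ratio without that constant. A gene was counted as changed when its log2 ratio was above 1 or below -1, a 2-fold change, among 12949 genes with a mean of at least 1 FPKM over the 4 libraries. Of the glial and neural progenitor markers GFAP, NES, SOX2, OLIG2 and S100B, 3 of 5 reached 1 FPKM in both U251 libraries and 1 of 5 in each U87 library. In U87 this was NES in Control but a different marker in Bru, where NES was below 1 FPKM. The markers summed to 257 and 143 FPKM in U251 Control and Bru, but to 2.31 and 1.81 FPKM in U87, where SOX2 had 0 and 2 reads and S100B had 0 reads. Endothelial markers summed to 4.16, 3.62, 1.08 and 0.882 FPKM in U251 Control, U251 Bru, U87 Control and U87 Bru. The part of these marker differences in the results was not tested.

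Of the 10 genes, 7 passed the minimum of 1 FPKM, and SNAI1, TWIST2 and CDH1 did not. VIM was the most abundant member in all 4 libraries and stood above 99.9% of the genes with a read. In U251 Control the order after VIM was CDH2, CDH11, ZEB1, TWIST1, SNAI2, ZEB2 and SNAI1. CDH11 stood at 1.0 times ZEB1 (0.923 to 1.09) and ZEB1 at 1.08 times TWIST1 (0.928 to 1.25), so these neighbours did not differ beyond counting error. In U251 Bru, ZEB1, TWIST1, SNAI2 and CDH11 followed VIM and CDH2, and within these 4 no gene differed from the next beyond counting error. In U87 Control the order in FPKM was VIM, SNAI2, CDH2, TWIST1, ZEB1, ZEB2, CDH11 and SNAI1, with every step larger than counting error. This order also rests on the annotated lengths. U87 Bru kept this order down to ZEB2, after which SNAI1 and CDH11 differed by a ratio of 1.34 (0.804 to 2.15).

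**Figure D1:**
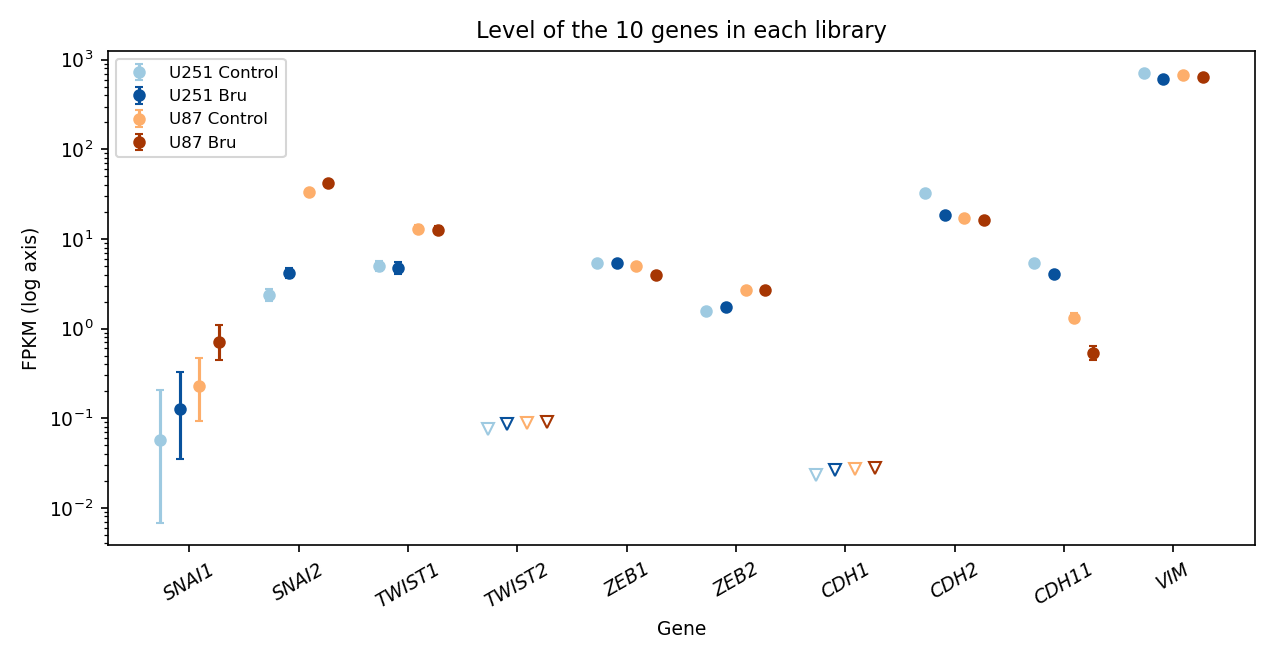
FPKM on a log axis for each of the 10 genes in the 4 libraries, with exact 95% counting intervals; open triangles mark 0 reads and stand at the level of 3 reads. VIM lies between 606 and 701 FPKM, while TWIST2 and CDH1 have no read in any library.

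The plot of levels by library shows which genes separate the lines: the U87 points of SNAI2 and TWIST1 stand above those of U251, the U87 points of CDH11 stand below, and ZEB1 and VIM lie close together. In the comparison of the Control libraries, SNAI2 and TWIST1 were more than 2-fold higher and CDH11 more than 2-fold lower in U87 than in U251. These were 3 of the 7 genes that passed, where 30.4% of all genes tested were past 2-fold, 14.5% higher and 16% lower. In the comparison of the Bru libraries the counts were again 2 higher and 1 lower, against 29.2% of all genes, 14.3% higher and 15% lower. The median log2 ratio of U87 to U251 over the 7 genes was -0.07 in Control and 0.06 in Bru, and over all genes -0.01 and -0.02. Both comparisons describe 1 culture of each line, so that line and culture cannot be told apart.

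**Figure D2:**
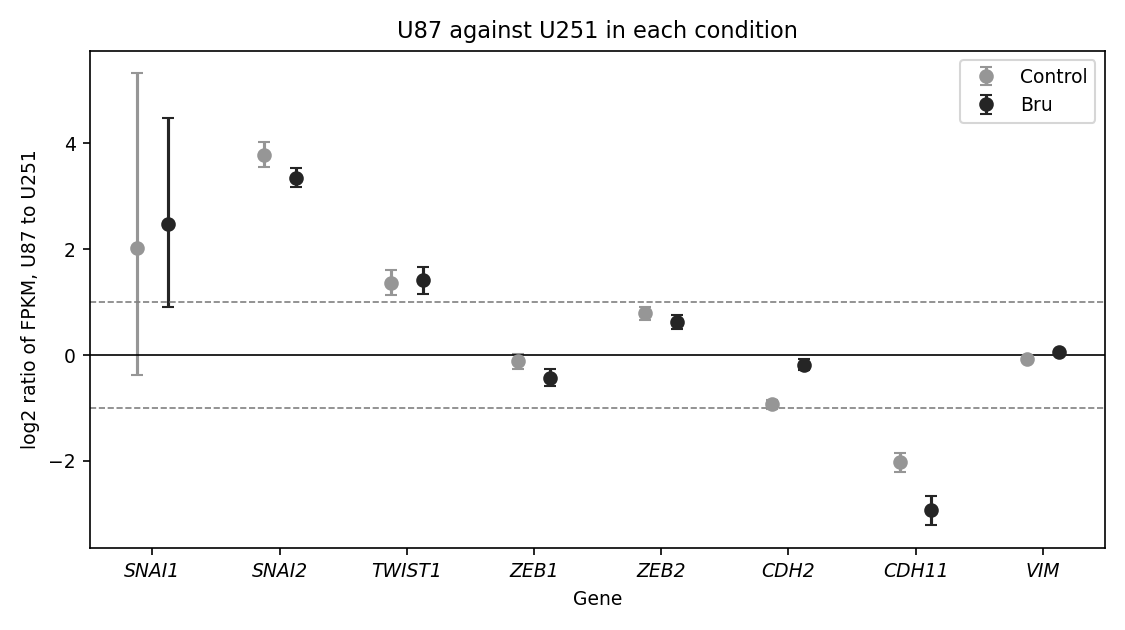
Log2 ratio of FPKM, U87 to U251, for the 8 members with reads, in the Control libraries (grey) and the Bru libraries (black), with exact 95% counting intervals and dashed lines at 2-fold. SNAI1, SNAI2 and TWIST1 lie above the upper line and CDH11 below the lower line in both conditions, SNAI1 with 2 to 21 reads per library.

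In the comparison of Bru with Control, none of the 7 genes was past 2-fold in U251, where 8.8% of all genes were, 3.36% higher and 5.44% lower. In U87, CDH11 was past 2-fold, lower in Bru, where 3.34% of all genes were past 2-fold, 1.92% higher and 1.41% lower. The median log2 ratio of the 7 genes was -0.07 in U251 and -0.08 in U87, and over all genes it was -0.03 and -0.04. The ratio was above 0 for 2 genes and below 0 for 5 in U251, and above 0 for 1 and below 0 for 6 in U87, but 4 of these ratios, of TWIST1 in both lines, ZEB1 in U251 and ZEB2 in U87, took either sign over the scalings tried. Among all genes tested, 6110 ratios were above 0 and 6741 below in U251, and 5474 and 7337 in U87. The counting interval excluded 0 for 5 of the 7 genes in U251 and 4 of 7 in U87. The share of all genes whose interval excluded 0 was not computed, so these counts cannot be called particular to the members. Past 2-fold, 435 of all genes tested were higher and 705 lower in U251 Bru, a split that became 551 and 576 when libraries were scaled to the reads on genes. In U87 Bru, 249 were higher and 183 lower past 2-fold.

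**Figure D3:**
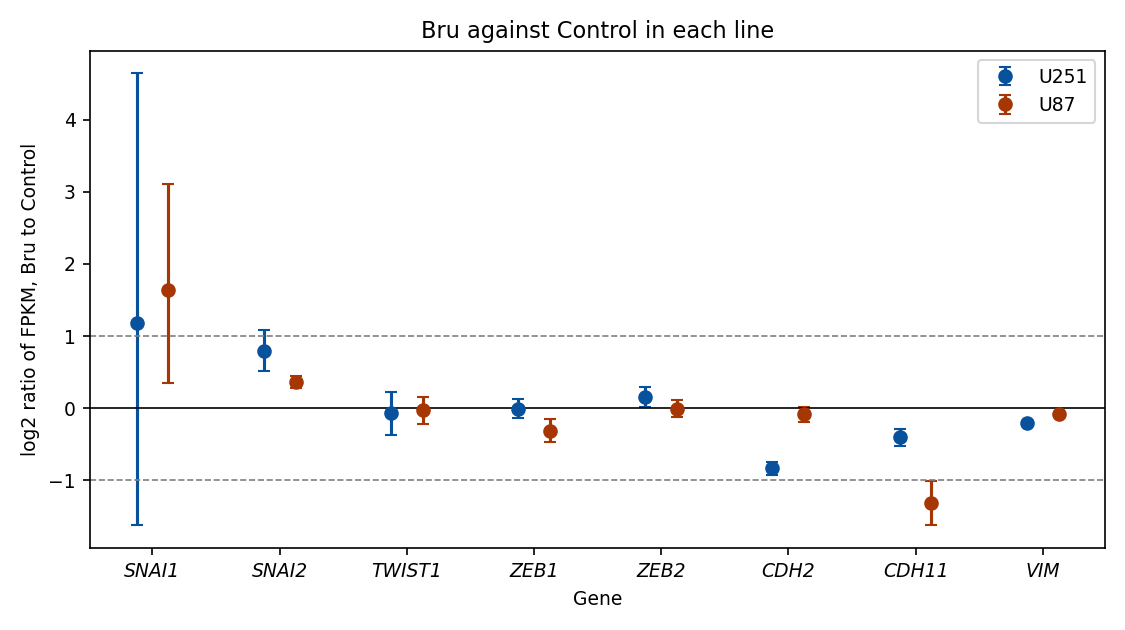
Log2 ratio of FPKM, Bru to Control, for the 8 members with reads in U251 (blue) and U87 (red), with exact 95% counting intervals and dashed lines at 2-fold. SNAI2 lies above 0 in both lines, CDH2 lies at -0.84 in U251 and near 0 in U87, and CDH11 lies below -1 in U87.

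The plot of Bru to Control ratios shows that the members did not move as a block. SNAI2 was above 0 in both lines, CDH11 and VIM were below 0 in both, and the intervals of TWIST1 included 0 in both. Among the 7 genes that passed, the lines differed most for CDH2 and CDH11, in opposite directions.

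SNAI2 lies on chromosome 8 (GRCh38, 48917604 to 48921740, minus strand) and had 170 reads in the Control and 261 in the Bru library of U251, and 2027 and 2505 in those of U87. These were 2.39, 4.15, 33.1 and 42.4 FPKM. Both U87 libraries were far above both U251 libraries, and SNAI2 ranked above 59.0% and 67.5% of the genes with a read in U251 but above 94.0% and 95.9% of them in U87. In Control it was 13.8-fold higher in U87 than in U251, a log2 ratio of 3.74 (3.56 to 4.03), and in Bru 10.2-fold higher, a log2 ratio of 3.32 (3.17 to 3.54). Against Control, SNAI2 in Bru was 1.74-fold higher in U251 (log2 ratio 0.77, 0.51 to 1.08) and 1.28-fold higher in U87 (0.36, 0.27 to 0.44), in neither line past 2-fold. The log2 ratio in U87 was 0.41 below that in U251 on the FPKM + 0.1 scale, with a counting interval of -0.74 to -0.14 for the difference.

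SNAI1 (chromosome 20, 49982999 to 49988886, plus strand) had 2 and 4 reads in the U251 libraries and 7 and 21 in the U87 libraries, Control first, or 0.0566, 0.128, 0.230 and 0.716 FPKM. It was low in every library and highest in U87 Bru. The U87 libraries differed 3.11-fold, a log2 ratio of 1.64 (0.35 to 3.12) without the constant and of 1.31 on FPKM + 0.1. The latter would count as past 2-fold only with a lower minimum level. In U251 the interval ran from -1.62 to 4.65, so no difference between 2 and 4 reads was detectable at this depth. The FPKM ratio of U87 to U251 was 4.06 in Control, with a log2 interval of -0.37 to 5.32, and 5.59 in Bru, with one of 0.92 to 4.49. SNAI2 made up 97.7%, 97.0%, 99.3% and 98.3% of the summed FPKM of the Snail pair in U251 Control, U251 Bru, U87 Control and U87 Bru.

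TWIST1 (chromosome 7, 19020991 to 19117672, minus strand) had 213, 179, 475 and 448 reads in U251 Control, U251 Bru, U87 Control and U87 Bru, or 5.0, 4.75, 12.9 and 12.7 FPKM. Both U87 libraries were above both U251 libraries, and within a line the 2 conditions were close. U87 exceeded U251 2.59-fold in Control (log2 ratio 1.35, 1.14 to 1.61) and 2.66-fold in Bru (1.40, 1.16 to 1.67). Bru against Control stood at -0.07 (-0.37 to 0.22) in U251 and -0.03 (-0.22 to 0.16) in U87, and the difference between the lines had an interval of -0.31 to 0.39. TWIST2 (chromosome 2, 238848032 to 238910543, plus strand) had 0 reads in all 4 libraries, which allows at most 0.0762, 0.0862, 0.0884 and 0.0918 FPKM in U251 Control, U251 Bru, U87 Control and U87 Bru at a limit of 3 reads. All reads of the Twist pair were those of TWIST1.

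ZEB1 (chromosome 10, 31318495 to 31529814, plus strand) had 976, 858, 774 and 601 reads in U251 Control, U251 Bru, U87 Control and U87 Bru, or 5.38, 5.35, 4.95 and 3.99 FPKM. The 2 Control libraries and U251 Bru were close, and U87 Bru was the lowest. Its log2 ratio, Bru to Control, was -0.01 (-0.14 to 0.13) in U251 and -0.30 (-0.47 to -0.16) in U87, and the difference between lines was -0.30 (-0.51 to -0.10). ZEB2 (chromosome 2, 144364364 to 144524583, minus strand) had 829, 814, 1233 and 1183 reads, or 1.58, 1.75, 2.72 and 2.71 FPKM in the same order. U87 was above U251 in both conditions, 1.73-fold in Control and 1.55-fold in Bru, and Bru stood at 0.14 (0.01 to 0.29) against Control in U251 and -0.01 (-0.12 to 0.11) in U87. In FPKM, ZEB1 exceeded ZEB2 in every library. The ratio was 3.41 (3.11 to 3.75) and 3.05 (2.77 to 3.36) in the Control and Bru libraries of U251. In those of U87 it was 1.82 (1.66 to 1.99) and 1.47 (1.33 to 1.62). These ratios rest on the annotated lengths, 8650 bases for ZEB1 and 25058 for ZEB2. By reads, ZEB2 was above ZEB1 in both U87 libraries, so which was higher there depends on the length used. The pair summed to 6.96, 7.10, 7.67 and 6.70 FPKM, so the total varied less between libraries than the proportion of its members.

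Both ZEB transcripts are textbook targets of the miR-200 family, which in turn the ZEB proteins repress. The mature sequences (RefSeq, GRCh38.p14) fall into a pair of seed groups, shown because their complements are what was looked for in ZEB1 and ZEB2; capitals mark the seed, bases 2 to 8.
hsa-miR-200b-3p: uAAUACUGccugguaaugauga
hsa-miR-200c-3p: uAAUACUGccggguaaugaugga
hsa-miR-200a-3p: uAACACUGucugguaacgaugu
hsa-miR-141-3p: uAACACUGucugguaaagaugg
The first 2 share the seed AAUACUG, with the match CAGTATT, and the last 2 share AACACUG, with the match CAGTGTT. The longest annotated 3′ UTR of ZEB1, 2.549 kb (GENCODE 29), held 6 CAGTATT and 3 CAGTGTT, or 2.35 and 1.18 per kb. That of ZEB2, 5.37 kb, held 5 and 4, or 0.931 and 0.745 per kb. Over 19164 protein-coding genes these letters occurred 0.117 and 0.135 times per kb, less often than in either ZEB transcript. The site shown for each gene carries its seed match in capitals, at chr10:31527625-31527646 on the plus strand for ZEB1 and at chr2:144389046-144389067 on the minus strand for ZEB2.
ZEB1 site: tatcttatCAGTATTatcactc
ZEB2 site: ccatacatCAGTATTtttatta
The genes MIR200A, MIR200B, MIR200C, MIR141 and MIR429 had 0 reads in all 4 libraries, and the host transcript MIR200CHG had 2 reads in U87 Control and 0 elsewhere. Such libraries do not measure mature miRNA, and a sequence match is not a measured site.

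Promoter windows of 300 bases (RefSeq) were searched for E-box letters in 5 members, namely TWIST2, ZEB1, ZEB2, CDH2 and VIM, with 12 windows in all, 7 of them of ZEB1. CACCTG or its reverse CAGGTG, the form best known for Snail and ZEB binding, stood in 2 of the 12 windows, both of ZEB1, and in 20.6% of 35116 windows of all genes. CATCTG or CAGATG stood in 2 of 12 against 14.7%, CATATG in 0 of 12 against 3.04%, and CANNTG, which includes the other 3, in 6 of 12 against 68.7%. These counts describe letters in the windows only.

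The 6 transcription factors together summed to 14.4 and 16.1 FPKM in the Control and Bru libraries of U251, and to 53.9 and 62.5 FPKM in those of U87. SNAI2 made up 16.6%, 25.7%, 61.3% and 67.9% of these sums. SNAI2 thus stood below TWIST1 in U251 Control, at a ratio of 0.478 (0.389 to 0.588), and above it in U87 Control, at 2.56 (2.31 to 2.83). In Bru the ratio was 0.874 (0.720 to 1.06) in U251 and 3.35 (3.03 to 3.71) in U87. Against ZEB1 the ratio of SNAI2 was 0.444 and 0.776 in U251 Control and Bru, and 6.68 and 10.6 in U87. These ratios are taken within a library and do not depend on how libraries were scaled, but they do depend on the annotated gene lengths.

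CDH1 (chromosome 16, 68737225 to 68835548, plus strand) had 0 reads in all 4 libraries. With a limit of 3 reads this allows at most 0.0232, 0.0262, 0.0269 and 0.0279 FPKM in U251 Control, U251 Bru, U87 Control and U87 Bru. E-cadherin mRNA was thus not detected in either line, with or without Bru, and no ratio was formed.

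CDH2 (chromosome 18, 27950966 to 28177446, minus strand) had 3394 and 1680 reads in the Control and Bru libraries of U251 and 1533 and 1391 in those of U87, or 32.7, 18.3, 17.1 and 16.1 FPKM. U251 Control stood above the other 3 libraries, which lay close together. In U251, CDH2 was 1.79-fold lower in Bru than in Control, a log2 ratio of -0.83 (-0.92 to -0.75), short of 2-fold. In U87 the log2 ratio was -0.09 (-0.19 to 0.02), and the difference between the lines was 0.75 (0.61 to 0.89). U87 was 1.91-fold below U251 in Control (log2 ratio -0.93, -1.02 to -0.84) and 1.13-fold below it in Bru (-0.18, -0.29 to -0.08).

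CDH11 (chromosome 16, 64943753 to 65126112, minus strand) had 1511, 1009, 320 and 124 reads in U251 Control, U251 Bru, U87 Control and U87 Bru, or 5.38, 4.07, 1.32 and 0.532 FPKM. Both U251 libraries were above both U87 libraries, and in each line Bru was below Control. In U87, Bru was 2.49-fold lower, a log2 ratio of -1.17 on FPKM + 0.1 and of -1.31 (-1.62 to -1.01) without the constant. In U251 the ratio was -0.40 (-0.52 to -0.29), and the difference between lines was -0.77 with an interval of -1.24 to -0.58. With a constant of 1 in place of 0.1 the U87 ratio was -0.60, and with a minimum of 1 FPKM over the U87 libraries alone, chosen after seeing the data, CDH11 did not pass and 0 members were past 2-fold in U87. The count of CDH11 thus rested on how a gene near 1 FPKM was treated. CDH11 was also 4.07-fold lower in U87 than in U251 in Control and 7.64-fold lower in Bru. CDH2 exceeded CDH11 by 6.07 and 4.50 in U251 Control and Bru, and by 13 and 30.3 in U87.

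The place of these genes among the cadherins was followed over 19 classical and related CDH genes, 16 of which had a read in some library. They summed to 80.5 and 49.2 FPKM in the Control and Bru libraries of U251, and to 47.3 and 45.1 FPKM in those of U87. CDH2 made up a similar share of each sum, 40.6%, 37.2%, 36.2% and 35.8%. CDH11 made up 6.69%, 8.27%, 2.80% and 1.18%. The rest differed between the lines: CDH4 (R-cadherin) made up 21.1% and 25.6% in U251 Control and Bru but 1.40% and 1.82% in U87, and CDH10 had reads only in the U251 libraries. CDH13, which encodes the membrane-anchored T-cadherin, made up 7.85% and 11.2% in U251 and 35.7% and 39.2% in U87. CDH24 made up 12.6% and 9.98% in U251 Control and Bru and 20.1% and 19.1% in U87. The ratio of CDH2 to CDH13 was 5.18 (4.87 to 5.51) and 3.32 (3.08 to 3.58) in the Control and Bru libraries of U251, but 1.01 (0.953 to 1.08) and 0.914 (0.858 to 0.973) in those of U87.

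**Figure D4:**
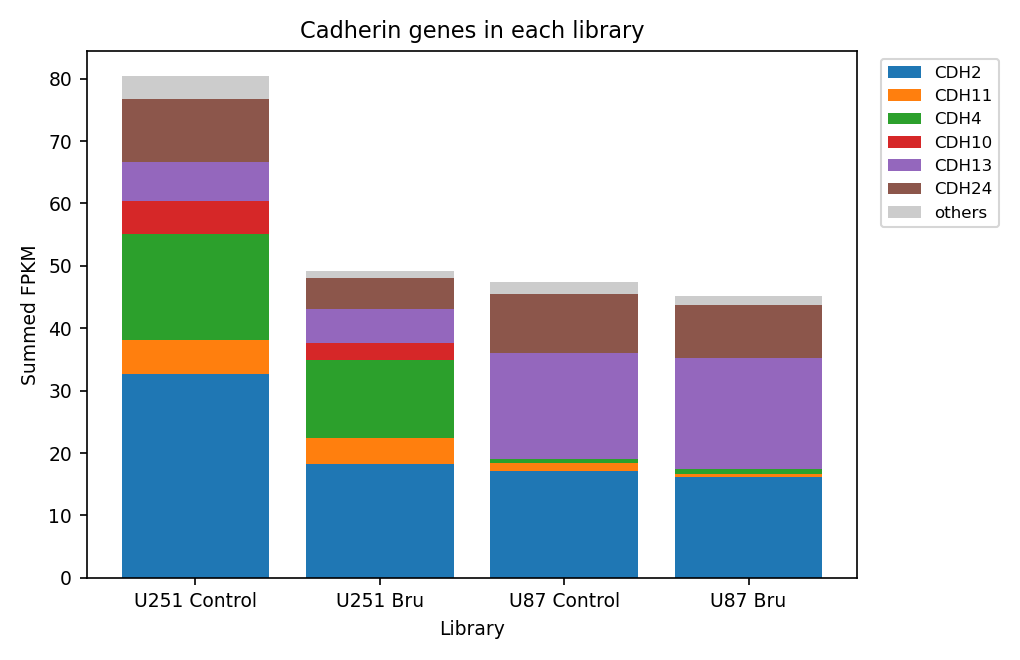
Summed FPKM of 19 cadherin genes in each library, stacked by gene. CDH2 is the lowest block of each bar at 16.1 to 32.7 FPKM, CDH4 and CDH10 are found mainly in the U251 bars, and CDH13 is larger in the U87 bars.

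The stacked plot of cadherins shows that the lower sum in U251 Bru, 49.2 against 80.5 FPKM, was spread over several genes, with CDH2 the largest part of the difference. Of the 16 other cadherins, 4 passed the minimum level, and all 4 were below 0 in U251 Bru. CDH24 was past 2-fold, with a log2 ratio of -1.03 (-1.24 to -0.87), CDH10 was at -0.95, CDH4 at -0.43 and the median was -0.69. CDH6, which failed the minimum because of 3 and 1 reads in U87, had 772 and 132 reads in U251 Control and Bru, or 2.97 and 0.575 FPKM, a log2 ratio of -2.19 (-2.65 to -2.10 without the constant). With the minimum taken within a line, 5 passed in U251, all below 0 with CDH6 and CDH24 past 2-fold, and 3 passed in U87, with none past 2-fold and CDH24 at -0.14 (-0.31 to 0.02). Under this minimum 8.98% of all genes were past 2-fold in U251 and 3.15% in U87, and 6712 of 12651 and 7255 of 12591 were below 0.

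VIM (chromosome 10, 17228259 to 17237593, plus strand) had 75825 and 57924 reads in the Control and Bru libraries of U251 and 62311 and 56853 in those of U87, or 701, 606, 669 and 633 FPKM. The 4 libraries were close, with U251 Control the highest. In log2, Bru stood at -0.21 (-0.23 to -0.19) against Control in U251 and at -0.08 (-0.09 to -0.06) in U87. Counting intervals this narrow are smaller than the effect of scaling, which gave -0.21 to -0.12 for U251 and -0.08 to -0.02 for U87. U87 against U251 was -0.07 in Control and 0.06 in Bru, and the latter took the opposite sign, -0.04, when libraries were scaled to TPM.

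Antisense genes share exon bases with several members. The kit used is taken not to mark strand, in which case their reads cannot be told apart where they overlap. VIM-AS1, which shares 641 bases with VIM, 12.4% of the exon bases of VIM, had 61, 87, 286 and 479 reads in U251 Control, U251 Bru, U87 Control and U87 Bru. ZEB1-AS1 shares 366 bases with ZEB1 and had 56, 75, 75 and 65 reads, and ZEB2-AS1 shares 1299 bases with ZEB2 and had 0, 1, 6 and 1. Against the reads of VIM, ZEB1 and ZEB2 these were few, at most 75 beside 601 or more for ZEB1. AC003986.2 shares 141 bases with TWIST1 and had 2, 2, 11 and 1 reads in the same order. AC110015.1 shares 136 bases with CDH2 and had 3, 3, 12 and 6. How reads in shared bases were credited is not known, so these counts do not limit the reads that came from them.

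Genes that act with the members were described by lists. TWIST proteins work as dimers with the E proteins TCF3, TCF4 and TCF12, and ID proteins block such dimers. All 7 of these genes passed the minimum, with a median log2 ratio of Bru to Control of 0.37 in U251, where ID2 and ID4 were past 2-fold and higher, and of -0.06 in U87 over the 5 that reached 1 FPKM there, where none was past 2-fold. Beside this and the lists below, 8.98% of all genes that reached 1 FPKM within U251 were past 2-fold there, and 3.15% of those within U87. ID2 had 15 and 50.6 FPKM in U251 Control and Bru, a log2 ratio of 1.75 (1.63 to 1.88), and 26.4 and 26.6 FPKM in U87. ID4 had 3.89 and 10.2 FPKM in U251, a log2 ratio of 1.37 (1.14 to 1.64 without the constant), and 0 reads in U87.

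Other epithelial genes differed in level, and many were low in both lines. Of 10 regulators of the epithelial state, 9 stayed under 1 FPKM in every library, and the exception was KLF4, with 1.09, 1.78, 7.89 and 11.3 FPKM in U251 Control, U251 Bru, U87 Control and U87 Bru. Of 25 epithelial junction and keratin genes, 14 stayed under 1 FPKM in every library and 10 passed the minimum. Of all 58735 genes of any type, 12949 passed. Among the 10, TJP1 had 10.6 to 17.3 FPKM and DSG2 10.6 to 13.3 FPKM over the 4 libraries. In U251 Bru, CLDN1 was the only one of these 10 past 2-fold, lower at -1.11 (-1.46 to -0.85), and in U87 Bru the only one was OCLN, lower at -1.51 (-2.81 to -1.27 without the constant), from 79 to 19 reads. OCLN had 0.647 and 0.161 FPKM in U87 and passed only through U251, and of the 5 genes that reached the minimum within U87 none was past 2-fold. KRT19, which failed the minimum, had 43 and 5 reads in U251 Control and Bru. KRT18 was 0.56 (0.42 to 0.71) in U251 and -0.62 (-1.62 to 0.08) in U87. KRT18 also passed only through U251, with 9.67 and 14.3 FPKM in Control and Bru there. In U87 it had 35 and 20 reads, or 0.602 and 0.357 FPKM. The median over the 10 genes was -0.21 in U251 and -0.12 in U87, and it was 0.21 over the 5 that reached the minimum within U87.

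Cadherins act through catenins that link them to actin. Of 12 catenin and anchor genes 10 passed in U251, with 8 of them below 0 and a median of -0.45, and the 7 that reached the minimum within U87 were all below 0 there, with a median of -0.28. Of all genes that reached the minimum within the line, 6712 of 12651 were below 0 in U251 and 7255 of 12591 in U87. JUP, which encodes plakoglobin, was past 2-fold in U251, with 13.8 and 4.80 FPKM in Control and Bru and a log2 ratio of -1.50 (-1.68 to -1.37), and had only 5 and 1 reads in U87. AJUBA stood at 0.95 (0.82 to 1.11) in U251 and -0.13 (-0.33 to 0.06) in U87.

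Genes close to absent in U87, such as CDH10 at 0 reads, CTNND2 at 0 and 4 and PLEKHA7 at 9 and 11, have ratios in that line that rest on few reads and on the constant. CDH10 was at 0 there and CTNND2 at 0.42. In the plot of ratios by list, the 7 members that passed lie around 0 in both lines, with CDH11 in U87 as the only one beyond the dashed lines. Whether the lists differ between lines was not tested.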

How the data were processed

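Per the labels, RNA of each cell line and condition was sequenced as 1 library. The study's methods name an NEB kit, which is taken here not to mark strand, though the methods do not state this. The authors deposited 1 table of FPKM values per library, in which each value times the gene length was a whole number of reads times 1 constant. The submitters' processing notes name HISAT2 2.0.5, StringTie 1.3.3b, featureCounts 1.5.0-p3, DESeq2 1.16.1 and the build hg18, but all 58735 gene coordinates equalled GENCODE 29 on GRCh38, which is the build used here. Strand settings of the counting are not given in the sources used here.

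Reads were recovered from FPKM, with 100% of values above 0 within 0.001 of whole reads. Ratios were log2 of FPKM + 0.1. Intervals were exact Clopper-Pearson intervals, and exact conditional intervals for differences between lines (SciPy 1.17.1). No test was run across genes, since each group held 1 library. Scripts were tested on simulated data. Alternatives were other constants, scalings and filters. A minimum of 1 FPKM within each line was added after seeing the data and is used for gene lists where stated. Members and gene lists were chosen with earlier results of these data known. Named genes were all members, up to 3 genes per other list with the largest mean absolute log2 ratio over both lines among those that passed, genes past 2-fold in both lines, and genes that overlap a member. Further genes, such as those of the markers and of MIR200, were named because a statement turned on them. Part of the marker genes examined is not reported here.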

Additional observations from a re-analysis of the deposited data

Results flagged for a closer look

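Among 40 members and named genes, 2 had log2 ratios of Bru to Control in opposite directions in the lines, with both counting intervals away from 0. The share of all genes tested with this pattern was not computed, and many named genes were picked for large ratios. The count thus cannot be called particular to these genes. ID1, which encodes an inhibitor of bHLH dimers, had 127 and 164 FPKM in U251 Control and Bru and 254 and 189 FPKM in U87, log2 ratios of 0.37 (0.30 to 0.44) and -0.42 (-0.48 to -0.37). LATS2, which encodes a kinase that phosphorylates Snail, had 5.74 and 3.79 FPKM in U251 and 4.38 and 5.44 FPKM in U87, log2 ratios of -0.58 (-0.78 to -0.42) and 0.31 (0.13 to 0.50). With 1 library per condition, the difference between the lines was not tested, and neither gene was past 2-fold.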

How the results depend on the processing

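Constants of 1 and 0.01 and 5 other scalings gave 280 recomputed log2 ratios and differences of members, of which 249 moved by less than the counting interval, 31 moved by more and 0 of those past 2-fold took the other sign. VIM between the Bru libraries took the other sign under TPM, at -0.04. The 31 were values of VIM, SNAI2, ZEB2, CDH2 and CDH11. CDH2 in U251 was -0.75 when scaled to the reads on genes, and TPM moved the median of all genes between the Bru libraries to -0.12. The member counted as lower in U87, CDH11, was not counted with a constant of 1, a minimum of 5 FPKM or a minimum of 1 FPKM within the line (0 members each), and 1 member, SNAI1, was counted as higher in U87 with a minimum of 0.1 FPKM or with no filter. Counts of all genes past 2-fold followed the number tested and the constant. With a constant of 1 they were 197 higher and 419 lower in U251 and 113 and 77 in U87. A minimum of 0.1 FPKM gave 1782 and 1945 in U251 and 1627 and 1174 in U87, no filter 2424 and 2539, and 2531 and 1804, and a minimum of 5 FPKM 150 and 323, and 38 and 45. Among protein-coding genes, 223 were higher and 477 lower in U251, and 32 higher and 64 lower in U87. No paired analysis was possible because each group held 1 library and the labels give no replicate numbers, and no library could be left out for the same reason.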

Other observations

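Other transcription factors linked to the transition were followed in a list of 11 genes, of which 4 reached the minimum within U251 and 5 within U87, with median log2 ratios, Bru to Control, of -0.44 and -0.23 and none past 2-fold. PRRX1 was lower in Bru in both lines, at -0.43 (-0.53 to -0.33) and -0.85 (-0.97 to -0.75), and FOXC2, with 1 read in each U251 library and 19.4 and 10.1 FPKM in U87 Control and Bru, was at -0.93 (-1.09 to -0.78) in U87. SOX4 was at -0.57 (-0.64 to -0.51) in U251 and -0.23 (-0.55 to 0.06) in U87. Of 9 regulators described for the mesenchymal state of glioma, all passed, and 2 were past 2-fold in U251, both lower: WWTR1, which encodes the Hippo effector TAZ, at -1.15 (-1.23 to -1.07) and CEBPD at -1.13 (-1.36 to -0.94). RELA was at 0.76 (0.67 to 0.85) in U251 and 0.31 (0.23 to 0.40) in U87, and none of the 9 was past 2-fold in U87, where WWTR1 was at -0.44. Of all genes that reached the minimum within the line, 8.98% were past 2-fold in U251 and 3.15% in U87.

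Corepressors through which Snail, Twist and ZEB proteins act all passed, 11 of 11, and none was past 2-fold, at medians of -0.32 (U251) and -0.18 (U87), with 9 of 11 below 0 in each line. For this and the lists that follow, 6712 of 12651 genes that reached the minimum within U251 were below 0, and 7255 of 12591 within U87. EZH2 was the furthest from 0 in U251 at -0.63 (-0.73 to -0.54). Of 10 genes that act on the turnover of these proteins 9 passed, with medians of -0.01 and -0.02. Of 13 genes that encode plectin or intermediate filaments other than vimentin, 8 reached the minimum within U251 and 5 within U87, all of them below 0, with medians of -0.73 and -0.26. NES, which encodes nestin, was past 2-fold and lower in both lines. It went from 125 to 50.6 FPKM in U251 (-1.30, -1.35 to -1.26) and from 1.46 to 0.569 FPKM in U87 (-1.23, -1.84 to -0.91 without the constant). In U87 NES lay near the minimum of 1 FPKM, and its interval reached changes below 2-fold. GFAP was past 2-fold in U251 at -1.09, and LMNB1 was past 2-fold there at -1.40 (-1.47 to -1.33). NES stood beside VIM, the most abundant gene of this class, at log2 ratios of -0.21 and -0.08.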
